A study of Mus musculus with 8 samples.

Results

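miR-128 is a microRNA made from a pair of hairpins, Mir128-1 and Mir128-2, and was followed here through its 3 mature products: mmu-miR-128-3p, which is identical from both hairpins, and the opposite arms mmu-miR-128-1-5p and mmu-miR-128-2-5p, which differ. The species prefix is left out below. The members were all reads of the deposited table that carry 1 of these 3 names. They came to 466 of 47204 read sequences, or 3 of 895 mature miRNA names. The table lists RISC-bound short RNAs (R-sRNAs) of mouse brain, pulled down on Argonaute proteins with a GW182 peptide, from cortex and hippocampus combined. The 8 libraries came from 8 different mice, 4 of the genotype 5XFADtg Rubicon+/- (het) and 4 of the genotype 5XFADtg Rubicon-/- (ko). All 8 carried the 5XFAD transgene, which models amyloid deposition in Alzheimer's disease, so every library is from the amyloid model. Rubicon constrains autophagy, and the het mice had lost 1 copy, so the comparison holds no mouse with both copies intact. The mice were females in a mixed C57BL/6J/SJL background, of 6 months by the description of this comparison and of 6 or 8 months by the methods, and the labels give no age. That description also counts 3 het mice, while the labels and the methods give 4, and all 4 labelled het libraries were used. The values are CPM, reads per 1000000 reads of the library. In whole tissue, fewer cells of a type and less RNA per cell cannot be told apart.

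A microRNA hairpin is cut by Drosha and Dicer into a duplex, of which 1 strand, the guide, is kept in Argonaute while the opposite, passenger strand is mostly lost. The guide finds mRNAs through its seed near the 5′ end, so a guide that starts 1 base earlier or later reads out another seed. miR-128 is a classical brain microRNA, enriched in neurons, where it restrains neuronal excitability and motor activity. In Death Induced by Survival gene Elimination (DISE), seeds rich in G near the 5′ end kill cells by silencing essential genes, and abundant guides with other seeds occupy the RISC instead. Each 6mer seed (positions 2 to 7) carries a viability score in the table, the mean viability of 3 mouse cell lines that received an siRNA with that seed in an earlier screen. A low score marks a toxic seed.

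The mature sequences, from RefSeq (GRCm38.p6), are shown because the guide and the passenger arms carry very different seeds. Capitals mark bases 2 to 8 from the 5′ end.
miR-128-3p: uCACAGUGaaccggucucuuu
miR-128-1-5p: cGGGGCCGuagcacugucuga
miR-128-2-5p: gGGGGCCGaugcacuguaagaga
miR-27a-3p: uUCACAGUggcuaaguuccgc
miR-27b-3p: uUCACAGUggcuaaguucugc
Both 5p arms share 1 seed, GGGGCC in its 6mer form, and matched at 16 of 21 positions when aligned from base 1. The miR-27 family is shown because its seed, UCACAG, is that of miR-128-3p (CACAGU) moved by 1 base.

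miR-128-3p lies at chr1:128202404-128202424 on the plus strand and at chr9:112118644-112118664 on the minus strand. miR-128-1-5p lies at chr1:128202369-128202389 and miR-128-2-5p at chr9:112118679-112118701, each on the strand of its hairpin. In the GENCODE M21 annotation the Mir128-1 hairpin, 70 nt long, sits inside R3hdm1 and the Mir128-2 hairpin, 76 nt long, inside Arpp21, a gene of striatal and cortical neurons. Both are on the strand of their host gene and overlap none of its exons, so both are intronic. No read sequence of the table was named for an R3hdm1 or Arpp21 mRNA fragment. The hairpins are printed with the mature arms in capitals, 5p arm first.
Mir128-1: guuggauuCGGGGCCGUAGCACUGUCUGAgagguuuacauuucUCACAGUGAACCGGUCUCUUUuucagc
Mir128-2: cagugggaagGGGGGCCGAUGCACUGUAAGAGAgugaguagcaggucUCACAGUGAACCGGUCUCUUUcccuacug
Bases just outside the arms differ between the hairpins, u after the 3p arm of Mir128-1 and c after that of Mir128-2, so a longer read can match only 1 of them.

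Library depth ran from 509839 reads in het replicate 1 to 19878054 in ko replicate 2, and ko replicates 1 and 2 were the only libraries over 5000000 reads. A floor of 3 reads stood at 5.79 CPM in the shallowest library and at 0.151 CPM in the deepest. Of the cell type lists examined, 5 neuron markers summed to 125275 to 165165 CPM in het and 121081 to 196721 CPM in ko, and none was at 0 in any library. Markers of epithelial or sensory cells moved with the genotype. All 8 had a negative log2 fold change, and the 6 that passed the limma test were the only ones to do so among the 463 miRNAs tested (1.3%). The sum of the 8 ranged from 2567 to 9762 CPM in het and from 203 to 1829 CPM in ko. The lists were chosen with earlier results of these data known, so this overlap is only a description. The part of these 8 markers in the results on miR-128 was not tested. None of the oligodendrocyte (3), microglia and blood cell (6), vessel (4) or choroid plexus (2) markers passed the limma test. The oligodendrocyte sum was 9473 to 15455 CPM in het and 6148 to 9935 CPM in ko. The microglia and blood cell sum was 4282 to 6671 and 3437 to 5291 CPM. For vessel it was 10722 to 17037 and 9750 to 16872 CPM, and for choroid plexus 2382 to 4665 and 2117 to 4483 CPM.

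By its mean over the 8 libraries miR-128-3p led all miRNAs of these brains, with 68599 CPM ± 16560 (SD, n = 8), but it did not lead in each of them. Its rank was 1 in 3 libraries (het replicate 3 and ko replicates 2 and 4), 2 in 3 libraries, 3 in 1 and 5 in 1, the shallow het replicate 1. It took between 4.03% and 8.89% of all reads of a library. miR-26a-5p, next in the order with 64915 CPM ± 12615, was above it in 4 of 8 libraries and led in het replicate 4 and ko replicates 1 and 3. The neuronal miR-9-5p (57047 CPM ± 16395) and miR-124-3p (52509 CPM ± 14832) followed, and each was the top miRNA of 1 het library. Both means lay within 1 SD of that of miR-128-3p, so the order among the leading miRNAs is a description of the means.

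**Figure D1:**
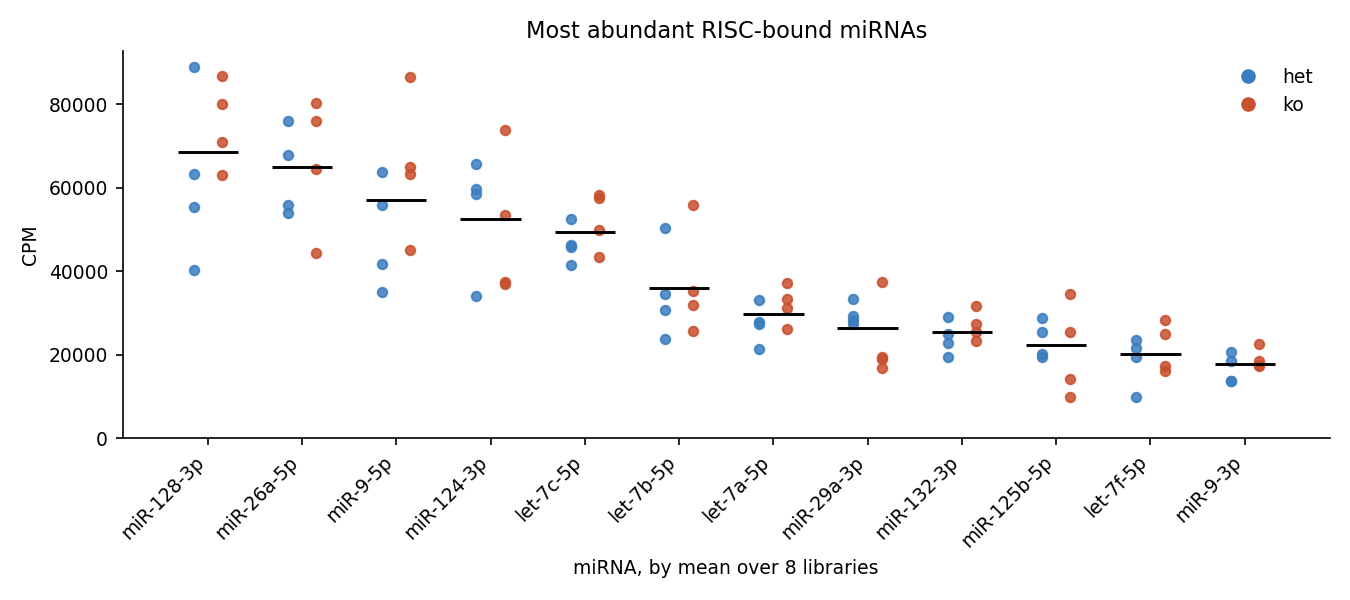
Level in CPM (linear axis from 0) of the 12 miRNAs with the highest means; each point is 1 library, blue for het and red for ko, and each black line the mean over 8 libraries. miR-128-3p has the highest mean, 68599 CPM, and its points from 40341 to 88938 CPM overlap those of miR-26a-5p, miR-9-5p and miR-124-3p.

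The guide did not differ between the genotypes beyond the spread between mice. In het replicates 1 to 4, mmu-miR-128-3p stood at 40341, 63335, 88938 and 55327 CPM. In ko replicates 1 to 4 it stood at 80022, 70901, 62985 and 86940 CPM. The lowest and the highest library were both het, and the 4 ko values lay inside the het range. The het mean was 61985 ± 20340 CPM and the ko mean 75212 ± 10468 CPM (SD, n = 4 each). On log2(CPM + 1) ko exceeded het by 0.33 (SE 0.24, 95% interval −0.19 to 0.85), which limma gave an adjusted p of 0.87. The interval includes no change as well as a rise of 0.85. At the depth of the shallowest library, 20896 reads gave an exact Poisson interval of 39796 to 40892 CPM, far narrower than the spread between mice. This interval covers counting error only.

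Het replicates 1 and 3, the lowest and the highest of their group, decided the size of this value. It fell to 0.14 without het replicate 1 and rose to 0.52 without het replicate 3. There the limma p was 0.046 before and 0.589 after adjustment, and 39 of 463 miRNAs were under 0.05 without adjustment. Across the 463 miRNAs tested, 6 passed an adjusted p of 0.05, or 1.3%, all of them lower in ko. Without adjustment 34 were under 0.05, or 7.34%, a count that was 21 without ko replicate 1 (4.54%) and 58 without ko replicate 2 (12.5%). None of the 3 miR-128 members was among the 6 or the 34. The median miRNA had a log2 fold change of −0.09, and centring each library on its median miRNA moved all values up by 0.22, which put miR-128-3p at 0.55 with a limma adjusted p of 0.801.

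The passenger arms were scarce. The het libraries had 30.9, 13.8, 22.1 and 13.9 CPM of mmu-miR-128-1-5p and the ko libraries 24.6, 24.6, 43.0 and 25.5 CPM, from 16 to 489 reads. Except for het replicate 1, each het library lay below all 4 ko libraries. The means of 20.2 ± 8.15 CPM and 29.4 ± 9.06 CPM (n = 4 each) differed by 0.56 on the log2 scale (SE 0.40, 95% interval −0.31 to 1.43, limma adjusted p = 0.839). het replicate 1 rests on only 16 reads, with an interval of 17.7 to 50.2 CPM, and without it the log2 fold change was 0.78, with a limma adjusted p of 0.927.

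For mmu-miR-128-2-5p the het libraries had 17.4, 17.2, 46.2 and 65.0 CPM and the ko libraries 39.1, 36.9, 83.4 and 36.3 CPM, from 9 to 734 reads. The groups overlapped, and ko replicate 3 stood well above the other ko libraries for both passenger arms. The means of 36.4 ± 23.4 CPM and 48.9 ± 23.0 CPM (n = 4 each) differed by 0.55 on the log2 scale (SE 0.48, 95% interval −0.49 to 1.59, limma adjusted p = 0.948). Without ko replicate 3 the log2 fold changes were 0.37 for miR-128-1-5p and 0.26 for miR-128-2-5p, with limma adjusted p of 0.933 and 0.961. Without het replicate 4, the highest het library for miR-128-2-5p, that miRNA had 0.90, with a limma adjusted p of 0.709, and without het replicate 1 or 2 it had 0.28 in either case.

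**Figure D2:**
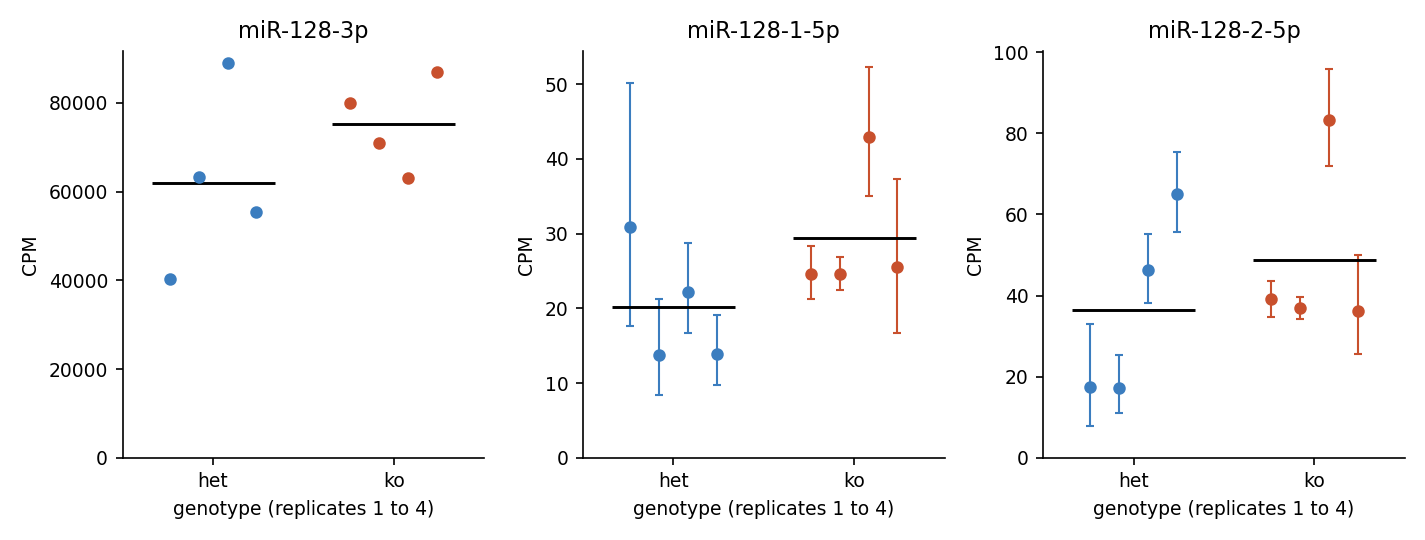
Level in CPM (linear axes from 0) of miR-128-3p, miR-128-1-5p and miR-128-2-5p in the 4 het (blue) and 4 ko (red) libraries, replicates 1 to 4 from left to right; bars are exact 95% Poisson intervals for counting error and black lines group means. The guide is near 68599 CPM on average and the passenger arms under 84 CPM, and the genotypes overlap in every panel.

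**Figure D3:**
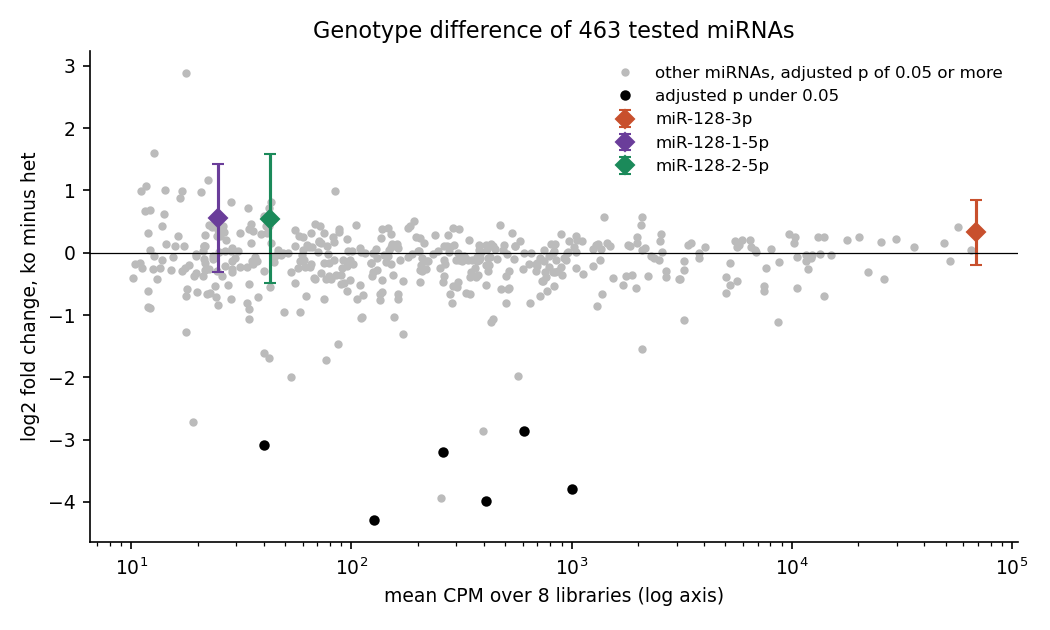
Log2 fold change (ko minus het) against mean CPM (log axis) for the 463 miRNAs tested; diamonds are the miR-128 members with their 95% intervals, black points the 6 miRNAs with an adjusted p under 0.05. All 3 miR-128 intervals cross 0, and the 6 called miRNAs lie below −2.8.

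One read of a passenger arm was found for every 499 to 2046 reads of the guide (mean 1151 ± 482, n = 8). The 5p arms made up 0.119%, 0.0488%, 0.0768% and 0.142% of miR-128 reads in het and 0.0794%, 0.0865%, 0.200% and 0.0709% in ko. The group means, 0.0969% ± 0.0420 and 0.109% ± 0.0609, gave an exact two-sided permutation p of 0.771 (n = 4 each, adjusted 0.857 over 6 per-library measures). The smallest p that 4 against 4 can give is 0.0286. It is 0.171 after adjustment when 1 measure alone reaches it, so a single measure could not pass. As a ratio of mean CPM, the guide of miR-128 exceeded its passenger arms 1017-fold. The same ratio of the more to the less abundant arm was 175 for miR-27b and 151 for miR-124, which also load mainly 1 strand, and 3.21 for miR-9, which loads both. miR-27a lay further to 1 side than miR-128, with 3120 CPM of its 3p arm against 8 reads of its 5p arm in ko replicate 2, 3 reads in ko replicate 3 and 0 in the other 6 libraries.

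The annotated 5p arms differ between the hairpins, while the annotated 3p arm does not. miR-128-1-5p took 39.0% ± 13.0 of the 5p reads (n = 8), so Mir128-2 gave the larger part of the 5p reads on average. The share was 64.0%, 44.4%, 32.4% and 17.6% in het replicates 1 to 4 and 38.6%, 40.0%, 34.0% and 41.3% in ko. The het libraries spread widely and the ko libraries closely, and the highest and lowest shares rest on 25 and 210 reads, with 95% Wilson intervals of 44.5% to 79.8% and 13.1% to 23.3%. The means were 39.6% ± 19.6 and 38.5% ± 3.16 (exact permutation p = 0.857, adjusted 0.857, n = 4 each).

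miR-128-3p reached the RISC with 1 dominant seed. CACAGU, with a viability of 49.5, was carried by 97.3% of its reads, and this share stayed between 97.1% and 97.7% over the libraries. By abundance it held place 3 among all 3427 seeds, with 67749 CPM, and 98.5% of those reads were named miR-128-3p. Of the seeds in the table, 31.2% had a lower viability. All reads with the seed came to 61319 ± 19893 CPM in het against 74179 ± 10261 CPM in ko (n = 4 each), and limma put the log2 difference at 0.32 (SE 0.24, adjusted p = 0.96). Among the 990 seeds tested, 3 passed an adjusted p of 0.05, or 0.303%, and 57 were under 0.05 without adjustment, or 5.76%.

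The passenger seed lies far lower on the same scale. GGGGCC, shared by both 5p arms, has a viability of 26.4, below which only 11.7% of seeds fall. It held 70.1 CPM in all, of which 35.2% were miR-128-1-5p and 53.4% miR-128-2-5p. In the RISC of these brains, reads with this G-rich seed were thus mostly miR-128 passenger strands, 88.6% on average and 67.8% to 98.1% in single libraries. The log2 difference between ko and het was 0.52 (SE 0.36, 95% interval −0.24 to 1.29, limma adjusted p = 0.928).

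A further 12% of miR-128-2-5p reads started 1 base upstream and so read GGGGGC, with a viability of 13.0, a score that only 2.83% of seeds undercut. The read gGGGGGCcgaugcacuguaaga, with its 6mer seed in capitals, was the most abundant of them at 1.61 CPM ± 1.68 (n = 8). miR-128-2-5p gave 57.8% of all GGGGGC reads of the table, whose total was only 8.83 CPM. Per library this rests on 3, 1, 5 and 28 reads in het and on 32, 42, 32 and 2 reads in ko, and the share of the seed ran from 19.5% in the deepest library to 100%. The seed was under the minimum mean of 10 CPM, so its genotype difference was not tested.

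The seed of reads weighted by abundance summarises this. The mean viability of miR-128-3p reads was 50.0 ± 0.0447 (n = 8), that of miR-128-1-5p reads 26.5 ± 0.275 and that of miR-128-2-5p reads 24.9 ± 1.41. All reads of a library together had a mean of 56.5 ± 0.469 in het and 56.3 ± 1.07 in ko (n = 4 each). Leaving miR-128 out raised the mean of a library by 0.311 to 0.747, since the guide lies below the average seed and is abundant. The rise was 0.435 ± 0.142 in het and 0.523 ± 0.166 in ko, and the groups overlapped. These scores come from the seed alone and were not measured in these mice.

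Most guide reads began at the annotated base. 97.5% of miR-128-3p reads started at base 1, 2.03% started 1 base downstream and 0.212% 1 base upstream. The reads that carry these changes are shown with the 6mer seed of each in capitals, since the start decides the seed.
start at base 1: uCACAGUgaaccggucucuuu
1 base downstream: cACAGUGaaccggucucuuu
1 base upstream: cUCACAGugaaccggucucuuu
3 bases downstream: cAGUGAAccggucucuuu
3 bases downstream, 1 nt longer: cAGUGAAccggucucuuuu
The downstream seed ACAGUG, with a viability of 70.2, was carried by 664, 1182, 2008 and 1116 CPM of miR-128-3p in the het libraries and by 1627, 1486, 1292 and 1966 CPM in the ko libraries. The groups overlapped. This shifted fraction held 96.7% of all reads with the seed ACAGUG, which ranked 67 among the seeds of the table, so a minor form of miR-128 was its main source. For the seed as a whole limma gave a log2 difference of 0.43 (SE 0.31, adjusted p = 0.952).

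Reads with any seed other than CACAGU, from a shifted start or from a mismatch inside the seed, made up 2.57% ± 0.257 of guide reads in the het and 2.79% ± 0.0973 in the ko libraries (n = 4 each, exact permutation p = 0.171, adjusted 0.771). The difference of 0.217 percentage points was 0.122 without het replicate 1 and 0.327 without het replicate 3. There the exact permutation p was 0.0286 before adjustment, the smallest that 4 against 3 can give, and 0.171 after it. The upstream form reads UCACAG, with a viability of 59.0, and so has the 6mer seed of miR-27a-3p and miR-27b-3p. It came to 146 CPM ± 40.8 (n = 8), 1.77% of the 8249 CPM with this seed. In the opposite direction, reads of miR-27a-3p and miR-27b-3p that start 1 base downstream carry the seed of miR-128-3p. Their most abundant examples, again with the seed in capitals, were these.
miR-27a-3p, 1 base downstream: uCACAGUggcuaaguuccgc
miR-27b-3p, 1 base downstream: uCACAGUggcuaaguucugc
All reads with this seed came to 20.3 CPM ± 5.47 for miR-27a-3p and 47.1 CPM ± 20.6 for miR-27b-3p (n = 8). This is 0.651% and 0.939% of the reads of those miRNAs and under 0.1% of the reads with the seed CACAGU. Over the 8 libraries, miR-128-3p held 98.0% to 98.7% of its seed, 98.4% ± 0.244 for het against 98.6% ± 0.0799 for ko (exact permutation p = 0.257, adjusted 0.771, n = 4 each). Most other reads with the seed had no mature miRNA name (944 CPM, 1.39% of the seed). Reads named for a miR-128 hairpin but for no mature arm came to 1274 CPM, 71.9% of it with the seed CACAGU. The share thus depends mostly on how miR-128 reads were named.

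At the start 3 bases downstream, a rare form, the genotypes did not overlap, although the difference did not pass the test over all seeds. This seed lies outside the set named by rule and was chosen after its values were seen. Reads with AGUGAA, a seed with a viability of 76.7, made up 0.0239%, 0.0749%, 0.0602% and 0.0516% of miR-128-3p in het and 0.10%, 0.104%, 0.116% and 0.108% in ko. Each ko library was above each het library. In CPM the reads stood at 9.65, 47.5, 53.6 and 28.5 in het, from 5, 69, 138 and 76 reads, and at 80.0, 73.9, 73.0 and 94.1 in ko, from 629, 1472, 170 and 96 reads. Among the 990 seeds tested, 7 had every ko library above every het library, or 0.707%.

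The whole AGUGAA seed, 93.9% of it miR-128-3p, was higher in ko by 1.50 on the log2 scale (SE 0.45, 95% interval 0.54 to 2.46) in value, but its limma adjusted p of 0.464 did not pass. het replicate 1 rests on 5 reads, and without it the log2 fold change was 0.99 (limma adjusted p = 0.807). Without the 2 libraries over 5000000 reads, both ko, it was 1.57 (limma adjusted p = 0.397). Starts 2 bases downstream, with the seed CAGUGA, overlapped between the genotypes, with 60.2 ± 21.2 CPM for het and 77.8 ± 21.9 CPM for ko (n = 4 each).

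**Figure D4:**
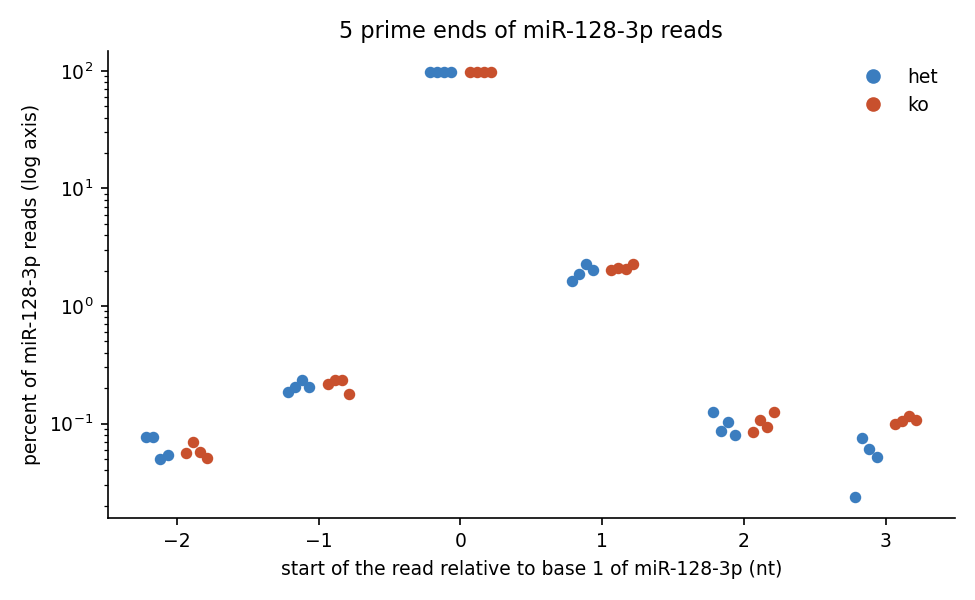
Share of miR-128-3p reads (percent, log axis) by the start of the read relative to base 1 of the annotated miRNA (nt, negative upstream); each point is 1 library, blue for het and red for ko, replicates 1 to 4 from left to right. The genotypes overlap at every start from 2 nt upstream to 2 nt downstream and do not overlap 3 nt downstream, where shares are 0.0239% to 0.0749% in het and 0.10% to 0.116% in ko.

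The 3′ ends varied far more than the 5′ ends. Of miR-128-3p reads, 56.6% ± 3.13 were 21 nt long, 29.3% ± 3.33 were 22 nt, 7.18% ± 0.837 were 20 nt and 5.28% ± 0.610 were 23 nt (n = 8). The 5 most abundant reads are given to show where they part from the hairpins. Capitals mark a base that matches neither hairpin.
21 nt, both hairpins: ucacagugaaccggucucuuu
22 nt, Mir128-1: ucacagugaaccggucucuuuu
20 nt, both hairpins: ucacagugaaccggucucuu
22 nt, tail of A: ucacagugaaccggucucuuuA
22 nt, Mir128-2: ucacagugaaccggucucuuuc
The first, the annotated mature form, took 54.7% of miR-128-3p reads at 37534 CPM ± 9292 (n = 8), and the second took 21.9% at 15116 CPM ± 4285. The second ends in a u that Mir128-1 encodes, but an added u on a product of Mir128-2 would look the same, so its hairpin of origin cannot be told from this base.

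The 20 nt form stood at 3974 CPM ± 727, the form with an added A at 2910 CPM ± 1394, and the form ending in the c of Mir128-2 at 1335 CPM ± 371 (n = 8). Relative to its mean, the form with an added A had the largest SD of these 5, with values from 1660 CPM in het replicate 1 to 5837 CPM in ko replicate 4. It had 2372 ± 978 CPM in het against 3448 ± 1676 CPM in ko (n = 4 each), and limma put the log2 difference at 0.50 (SE 0.36, adjusted p = 0.973).

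Sorted by template, 63.1% ± 3.99 of miR-128-3p reads matched both hairpins, 24.5% ± 2.06 matched only Mir128-1 and 2.05% ± 0.465 only Mir128-2 (n = 8). A 3′ tail of A was on 7.70% ± 2.03 of reads, from 5.04% in ko replicate 1 to 11.6% in ko replicate 4, so both extremes were ko libraries. Tails of u that neither hairpin encodes were on 0.487% ± 0.0590. An added u that Mir128-1 also encodes is not among them, so this share is not comparable with that of A. Reads named for a hairpin but for no mature arm, 396 sequences of which 25 lay in a hairpin, are left out here. Among reads named miR-128-3p, those that left both templates came to 9.82% ± 1.0 for het and 11.0% ± 2.85 for ko (n = 4 each, exact permutation p = 0.514, adjusted 0.857). The size of this difference rests on single ko libraries: the ko mean exceeded the het mean by 1.17 percentage points, by 0.0578 without ko replicate 4 and by 2.30 without ko replicate 1. Without both libraries over 5000000 reads it was 3.30, with an exact permutation p of 0.0667 (adjusted 0.40), the smallest that 4 against 2 can give. The mean length was 21.3 nt in both genotypes (SD 0.0286 for het and 0.0702 for ko, exact permutation p = 0.629, adjusted 0.857, n = 4 each).

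**Figure D5:**
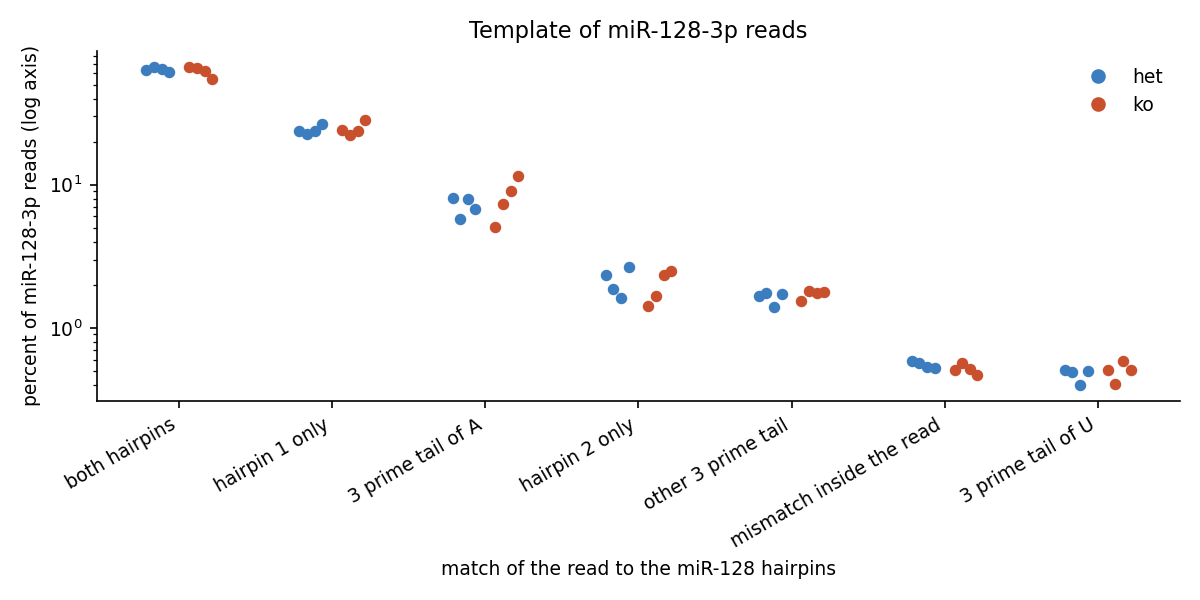
Share of miR-128-3p reads (percent, log axis) by how the read matches the Mir128-1 (hairpin 1) and Mir128-2 (hairpin 2) hairpins; each point is 1 library, blue for het and red for ko, replicates 1 to 4 from left to right. Reads that match both hairpins lead with 54.7% to 66.9%, and tails of A spread from 5.04% to 11.6%, with the genotypes overlapping in every class.

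Single reads leaned to ko without passing the test. Of the 466 member reads, 70 reached a mean of 10 CPM: 67 of miR-128-3p, 1 of miR-128-1-5p and 2 of miR-128-2-5p. Of these, 66 had a positive log2 fold change (ko against het) and 4 a negative one, beside 1597 positive of all 3299 reads tested (48.4%). The median of the 70 was 0.36, against −0.02 over all reads tested. The 67 guide reads come from 1 miRNA in the same libraries and are not independent of its level. None passed by limma, edgeR or DESeq2, while 16 of all reads did by limma, or 0.485%. At an unadjusted limma p under 0.05 there were 3 of the 70 member reads, beside 175 of the 3299 reads, or 5.3%. The member share was thus no higher than that of all reads. edgeR and DESeq2 also gave 3 member reads each, but their counts over all reads are not given. Without het replicate 3, the library with the most miR-128-3p, limma gave 11 such member reads, all higher in ko, beside 189 of all reads, or 5.73%. With the minimum mean lowered to 1 CPM it gave 14 of 196 member reads, 13 of them higher in ko, beside 866 of 16442 reads, or 5.27%. These counts over all reads were not split by direction, so the directions of the member reads have no share beside them. A mean of 1 CPM is under 1 read of het replicate 1 (1.93 CPM), so reads this low can be missing from that library.

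By limma those 3 reads were all higher in ko, and they are named after their values were seen. A pair of them were the reads above that start 3 bases downstream, with log2 fold changes of 1.15 and 1.55 and limma adjusted p of 0.776 and 0.629. The remaining read was the annotated form of miR-128-1-5p, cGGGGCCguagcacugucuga with its 6mer seed in capitals. It stood at 11.6, 2.75, 10.1 and 8.26 CPM in the het libraries and at 17.9, 16.8, 21.5 and 19.6 CPM in the ko libraries, so the groups did not overlap. limma put the log2 difference at 1.25 (SE 0.49, adjusted p = 0.776). In 4 of the 70 member reads tested every ko library was above every het library, against 26 of all 3299 reads, or 0.788%. They were these 3 reads and a 22 nt form of miR-128-3p, uCACAGUgaaccggucucuuag, for which limma put the log2 difference at 0.91 (SE 0.46, adjusted p = 0.967). The 2 leading reads of miR-128-2-5p, of 23 and 21 nt, averaged 10.5 and 11.3 CPM in the het and 17.6 and 14.7 CPM in the ko libraries, and their limma adjusted p was not under 0.973.

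The other neuronal miRNAs gave no common direction. Of 14 listed, 14 were tested, 7 had a positive and 7 a negative log2 fold change, and none passed by limma. At an unadjusted limma p under 0.05 there were 2, both lower in ko, beside 7.34% of all miRNAs. Their median log2 fold change was −0.02, against −0.09 over all miRNAs. The most abundant were miR-9-5p, which promotes neuronal differentiation, with a log2 fold change of 0.41 (limma adjusted p = 0.796), miR-124-3p, which represses non-neuronal transcripts, with −0.13 (limma adjusted p = 0.975), the activity-induced miR-132-3p with 0.17 (limma adjusted p = 0.975) and miR-125b-5p with −0.30 (limma adjusted p = 0.975).

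The 3p arms of the miR-27 family had lower means in ko, again without passing. miR-27a-3p had 3554 ± 507 CPM in het against 2686 ± 627 CPM in ko, and miR-27b-3p had 5601 ± 393 and 4427 ± 1425 CPM (n = 4 each). Their log2 fold changes were −0.42 and −0.39, with limma adjusted p of 0.768 and 0.796. Of the 4 family members listed, 3 were tested, 2 with a negative and 1 (miR-27b-5p, 0.08) with a positive log2 fold change, and none passed by limma. None was under 0.05 without adjustment either. With ko replicate 2 left out, 2 of the 3 were, beside 58 of all 463 miRNAs (12.5%), and with both libraries over 5000000 reads left out 1 was, beside 47 (10.2%).

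The miRNAs whose level followed miR-128-3p most closely over the 8 libraries were much less abundant. Among 277 miRNAs averaging 100 CPM or more, the highest Pearson r on log2(CPM + 1) was 0.79 for miR-411-3p (Spearman's rho 0.81), followed by miR-365-3p (0.72), miR-146a-5p (0.65), miR-431-5p (0.57) and miR-376c-3p (0.53). Without the 2 libraries farthest from the median of miR-128-3p, r was 0.85 for miR-411-3p, 0.63 for miR-365-3p, 0.57 for miR-146a-5p and 0.76 for miR-376c-3p, but 0.05 for miR-431-5p, which rests on those libraries. The median r over the 277 was −0.18, and 84 were positive. The points share depth and a fixed total, and these r were picked as the highest, so they are given as a description. For the abundant miR-124-3p, miR-9-5p and miR-26a-5p r was 0.23, 0.07 and 0.03, and without those 2 libraries it was 0.65, 0.70 and −0.48.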

How the data were processed

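Small RNAs bound to Argonaute were sequenced from 8 brains, 4 per genotype, grouped by the sample titles. Trim Galore is named in the submitters' processing notes. The authors' SPOROS pipeline then gave 1 line per read sequence with its miRNA name, 6mer seed and levels. The deposited values are CPM scaled by the authors, and the viability score is the authors' mean over 3 mouse cell lines. For the steps that made this table, the genome build and program versions are not given in the sources used here. Every sequence had at least 8 reads over all libraries, so rare forms seen only in shallow libraries are more easily missing. CPM is relative to the rest of the library.

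Member reads were found by exact name and summed per name, seed, start, length and hairpin match. Starts, tails (up to 4 nt) and template classes came from comparison with RefSeq hairpins (GRCm38.p6), of which all 3 members were matched, and host genes came from GENCODE M21. All values divided into whole reads (100%) within 0.0011 CPM or 0.001% of the value, whichever was larger. This tolerance was at most 1 part in 10 of a read for 99.7% of the values above 0. The recovered depth was 509839 to 19878054 reads per library. Poisson and Wilson 95% intervals cover counting error only and take each read as an independent count.

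miRNAs, seeds and reads that averaged 10 CPM or more were fitted with limma 3.58.1 (trend, robust; R 4.3.3) on log2(CPM + 1), which understates changes of low features, as one fit of both genotypes without covariate and with Benjamini-Hochberg adjustment over all features tested. The 6 per-library measures were compared by exact two-sided permutation over all 70 splits. edgeR 4.0.16 and DESeq2 1.42.0 were run on recovered reads as alternatives, beside other pseudocounts, filters, centring, a replicate block and leaving out libraries. Scripts were tested on simulated data. Named miRNAs were the members, their neighbours in the order by mean, the 4 most abundant neuronal miRNAs, miR-27a-3p, miR-27b-3p and the 5 highest correlations, and named reads and seeds were the most abundant, except where stated. miR-27a-5p, miR-27b-5p and miR-136-5p fall outside this rule and were named after their values were seen. let-7 miRNAs appear only in the plot of the 12 highest means. The members and lists were chosen with earlier results of these data known.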

Additional observations from a re-analysis of the deposited data

Results flagged for a closer look

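In 4 of 20 groups of 4 libraries 1 library lay apart from the rest by Dixon's criterion, where chance alone gives about 1. Of these, 3 concern ko replicate 3 and the passenger arms: miR-128-1-5p was at 43.0 CPM there against 25.5 CPM in the next highest ko library, and miR-128-2-5p was at 83.4 CPM against 39.1 CPM. The share of 5p arms among its miR-128 reads was 0.200%, against 0.0865% in the next ko library. The last was het replicate 1, the shallowest library, where miR-128-3p held 98.0% of the reads with its seed against 98.5% in the nearest het library. By the mean over the libraries, most of the remaining reads with that seed had no mature miRNA name.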

How the results depend on the processing

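Of 154 alternatives for single values, 148 kept both the direction and the side of the threshold, and of 72 for counts of features past the threshold, 70 stayed within 1.5 times the count reported or at 0 with it. For the 6 measures compared by exact permutation, the side of the threshold was largely fixed beforehand. The replicate block and leaving out both libraries over 5000000 reads cannot give a p under 0.125 and 0.0667. In the other settings the smallest p is 0.0286, which is 0.171 after adjustment when 1 measure alone reaches it. For these measures the alternatives therefore bear mainly on the direction. The log2 fold change stayed positive and missed the threshold in all alternatives that gave a value, from 0.14 to 0.55 for miR-128-3p, 0.37 to 0.78 for miR-128-1-5p, 0.26 to 0.90 for miR-128-2-5p and 0.14 to 0.51 for the main seed, with limma, edgeR or DESeq2 adjusted p of at least 0.589. The added seed AGUGAA, all of whose alternatives were chosen after seeing the data, ranged from 0.99 to 1.79, with adjusted p of at least 0.201. With a filter at 100 CPM the 5p arms gave no value. Adding the reads named for a hairpin but for no mature arm, 1274 CPM ± 264 in 396 sequences, also chosen after seeing the data, left miR-128-3p at 0.32.

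With the replicate block, 10 miRNAs passed in place of 6, and 1 neuronal miRNA in place of 0 (miR-136-5p, log2 fold change −1.54, limma adjusted p = 0.00591 against 0.266 without the block). Same-numbered libraries come from different mice, their deviations correlated at 0.04, 0.29, −0.18 and 0.25 over 463 miRNAs, and only number 2 correlated best with its own number, so the numbers do not pair the samples.

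Leaving out 1 library moved the count of miRNAs past the threshold from 6 to between 4 and 9. The ko minus het difference changed sign for 3 measures whose exact permutation tests were far from the threshold, and the cause was not tested. When 1 library was left out, the 5p arm share difference ran from −0.0179 (without ko replicate 3) to 0.0276 percentage points and was −0.00359 without het replicate 2, and without both libraries over 5000000 reads it was 0.0387. For the miR-128-1 share of 5p reads it ran from −8.48 to 6.98 percentage points (without het replicate 1), with 0.466 without het replicate 2 and 0.339 without ko replicate 3. For mean length it ran from −0.00651 (without ko replicate 4) to 0.0435 nt, and without both libraries over 5000000 reads it was 0.0744 nt. In the shallowest library the 5p arms rest on 25 reads, AGUGAA on 5 and GGGGGC on 3.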
